A study of Mus musculus with 4 samples.

Results

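The nuclear genes for the respiratory chain and ATP synthase were examined in mouse mammary tumour cells that overexpress a microRNA cluster. Gene names on the array that begin with Nduf followed by a, b, c, s or v, with Uqcr, with Cox4 to Cox8 or with Atp5, together with Sdha, Sdhb, Sdhc and Sdhd, were taken as the set. The rule found 82 names on 113 probes, and 80 of the 82 were measured among 20500 genes tested. All 80 were well above background in the cells' channel on all 4 arrays. The others, Cox8b and Cox8c, isoforms of a small cytochrome c oxidase subunit, were not well above background in that channel on both arrays of either group. Of the 80, 3 names do not stand for subunits. Ndufaf1 is an assembly factor of complex I, Cox4nb is the older name of Emc8, a part of the endoplasmic reticulum membrane complex, and Atp5s is the older name of Dmac2l, known as factor B of ATP synthase. The 77 others, called subunits here, comprise 36 of complex I, 4 of complex II, 7 of complex III, 15 of complex IV and 15 of ATP synthase. These counts follow the gene names. Complex IV thus includes Cox7a2l, a supercomplex factor, and complex I includes Ndufa4, since assigned to complex IV.

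The cells were of the line 4TO7, which the labels describe as a mammary tumour line of strain BALB/cfC3H. One stable line carried the retroviral vector pMSCV-puro alone and the other carried pMSCV-miR-23b/27b/24, the same vector family with the microRNA cluster. Each group had 2 arrays, which the series calls transfection replicates, so the p-values measure the spread between these replicates alone. Both lines were grown in DMEM with serum, and neither is described as a clone or as a pool. On every array Cy5 marked the RNA of the cells and Cy3 the common reference, Universal Mouse Reference RNA pooled from 11 cell lines, and dyes were not swapped. A ratio below is the log2 of Cy5 over Cy3 and holds any dye effect of its probe. A difference is the mean ratio of the 2 miR-23b/27b/24 arrays minus that of the 2 vector arrays, in which a constant dye effect cancels.

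The respiratory chain passes electrons from NADH (complex I) and succinate (complex II) through ubiquinone, complex III and cytochrome c to oxygen at complex IV. Complexes I, III and IV pump protons across the inner mitochondrial membrane, and ATP synthase, often called complex V, uses their return to make ATP. A few core subunits are encoded by mitochondrial DNA. The nuclear genes described here encode most of the other subunits, and in many tissues their mRNAs vary together. MicroRNAs pair with messenger RNAs mainly through their seed and lower the stability or translation of their targets.

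The overexpressed cluster is named for 3 microRNAs, and 2 of their mature sequences are shown because they define the treatment. They are credited to RefSeq (GRCm38.p6) and lie on the plus strand at chr13:63300760-63300780 and chr13:63301251-63301272. Capitals mark the seed, bases 2 to 8.
mmu-miR-27b-3p: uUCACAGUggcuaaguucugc
mmu-miR-24-3p: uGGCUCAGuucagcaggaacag
The seeds differ, so the pair falls into separate seed families. The third microRNA, mmu-miR-23b-3p, is named only.

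Probe sequences of the 2 genes that passed the test, and of Atp5d, a neighbour of Ndufs7, are shown next as examples of what the array reads. Capitals mark the stop codon that ends the open reading frame within the probe, where a script found one. The probe of Ndufs7 lies at chr10:80038985-80039044 and that of Atp5d at chr10:79926336-79926395 in the array's mm7 annotation, and for each the bases up to the stop codon are given. The second probe of Atp5s, at chr12:67682705-67682764, is given whole and is the dimmer of its pair. The call of Atp5s rests on its brighter probe, at chr12:67685525-67685584, which is not shown.
Ndufs7: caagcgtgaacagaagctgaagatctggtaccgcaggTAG
Atp5d: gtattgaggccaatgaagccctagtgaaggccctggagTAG
Atp5s: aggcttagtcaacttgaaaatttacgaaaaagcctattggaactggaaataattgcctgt

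Across the 80 genes the mRNA levels of the 2 lines were close. Differences ran from -0.77 for Cox7a2l to 0.80 for Atp5g3, and none reached 2-fold, which 8.19% of all genes tested did. Ndufs7 and Atp5s fell, and no gene rose. These 2 calls of 80 (limma, Benjamini-Hochberg adjusted p under 0.05) stand beside 9.41% of all genes called, 4.77% higher and 4.64% lower. At an unadjusted p under 0.05, 11 genes were higher and 10 lower, which is 26.2% of the 80 beside 27.7% of all genes. Of the 77 subunits, Ndufs7 alone was called. The median difference was 0.08, against -0.03 over all genes, and the median size of a difference regardless of sign was 0.25 against 0.23. Most of the set was bright, with 66 of the 80 at a mean log2 intensity of 12 or more. Over the 3212 tested genes that bright, the median size was 0.34. Of these, 37.2% had an unadjusted p under 0.05 and 11.3% were called (limma, as above). Since each array reads the RNA of a whole culture, fewer cells expressing a gene and less RNA per cell cannot be told apart.

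With 2 arrays per group the intervals were wide. For 63 of the 80 genes the 95% interval of the difference lay wholly within 2-fold in either direction, as it did for 74.2% of all genes. For the remaining genes a 2-fold change lay inside the interval. The count of calls also depended on single arrays. Without vector replicate 1, 18 genes passed (14 higher, 4 lower) beside 22.4% of all genes, and without vector replicate 2, 7 passed, all lower, beside 13.3%. Without either of the miR-23b/27b/24 arrays none passed, beside 1.04% and 1.15% of all genes. These fits take the spread of a group with a lone array from the group that keeps both.

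**Figure D1:**
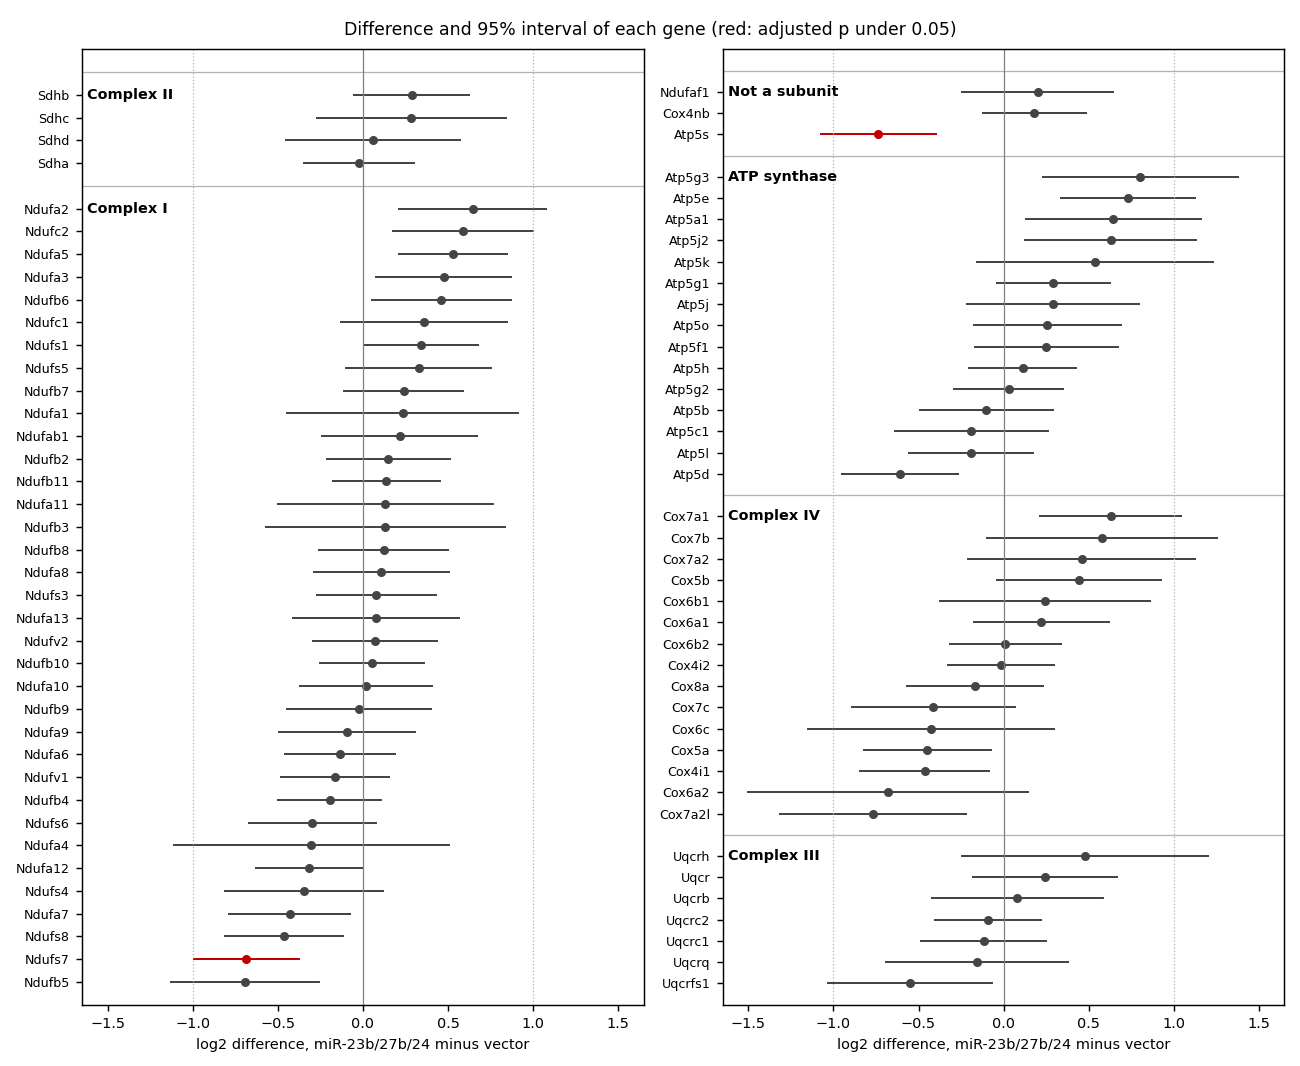
Difference in log2 ratio, miR-23b/27b/24 minus vector, for 79 of the 80 measured genes (points) with its 95% interval from limma (lines), grouped by complex and sorted within it; dotted lines mark 2-fold. Every point lies inside the dotted lines, from -0.77 to 0.80, and only Ndufs7 and Atp5s are red.

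Ndufs7 encodes a core subunit of complex I that holds the iron-sulfur cluster next to the ubiquinone site. Its ratio was -0.52 and -0.59 on the vector arrays and -1.22 and -1.27 on the miR-23b/27b/24 arrays. Both miR-23b/27b/24 values lay below both vector values, so leaving out an array could not reverse the direction. The arrays within each group were close. The difference of -0.69 ± 0.12 (SE, 2 arrays per group), a 1.61-fold lower level, had a 95% interval from -0.995 to -0.376 and a limma adjusted p of 0.0365. Its direction held under all 18 alternative settings, but the adjusted p, which ran from 0.0312 to 0.242 over them, missed the threshold under 8.

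Atp5s, listed in RefSeq as Dmac2l, encodes a peripheral protein associated with the proton channel part of ATP synthase rather than one of its subunits. The ratio was -0.15 and -0.27 on the vector arrays and -1.02 and -0.87 on the miR-23b/27b/24 arrays, and the groups did not overlap. The difference was -0.74 ± 0.13 (SE), 1.67-fold lower, with a limma adjusted p of 0.0380. The second probe, whose sequence is shown above, read 0.08 and 0.02 on the vector arrays and -1.16 and -0.88 on the others, a difference of -1.07. Both probes were thus lower on both miR-23b/27b/24 arrays. The adjusted p ran from 0.0243 to 0.269 over the alternatives and likewise missed the threshold under 8 of the 18.

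Just outside the threshold stood Atp5e at 0.73 (limma adjusted p = 0.0535) and Atp5d at -0.61 (adjusted p = 0.0564). After these came Ndufa5 at 0.53 (adjusted p = 0.0653), Ndufb5 at -0.69 (adjusted p = 0.0721) and Cox7a1 at 0.63 (adjusted p = 0.0782). The genes nearest to a call thus pointed in both directions. In all, 48 of the 80 differences were positive and 32 negative. Groups did not overlap for 48 genes, 28 higher and 20 lower, which is 60.0% beside 59.8% of all genes (27.4% higher, 32.3% lower).

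**Figure D2:**
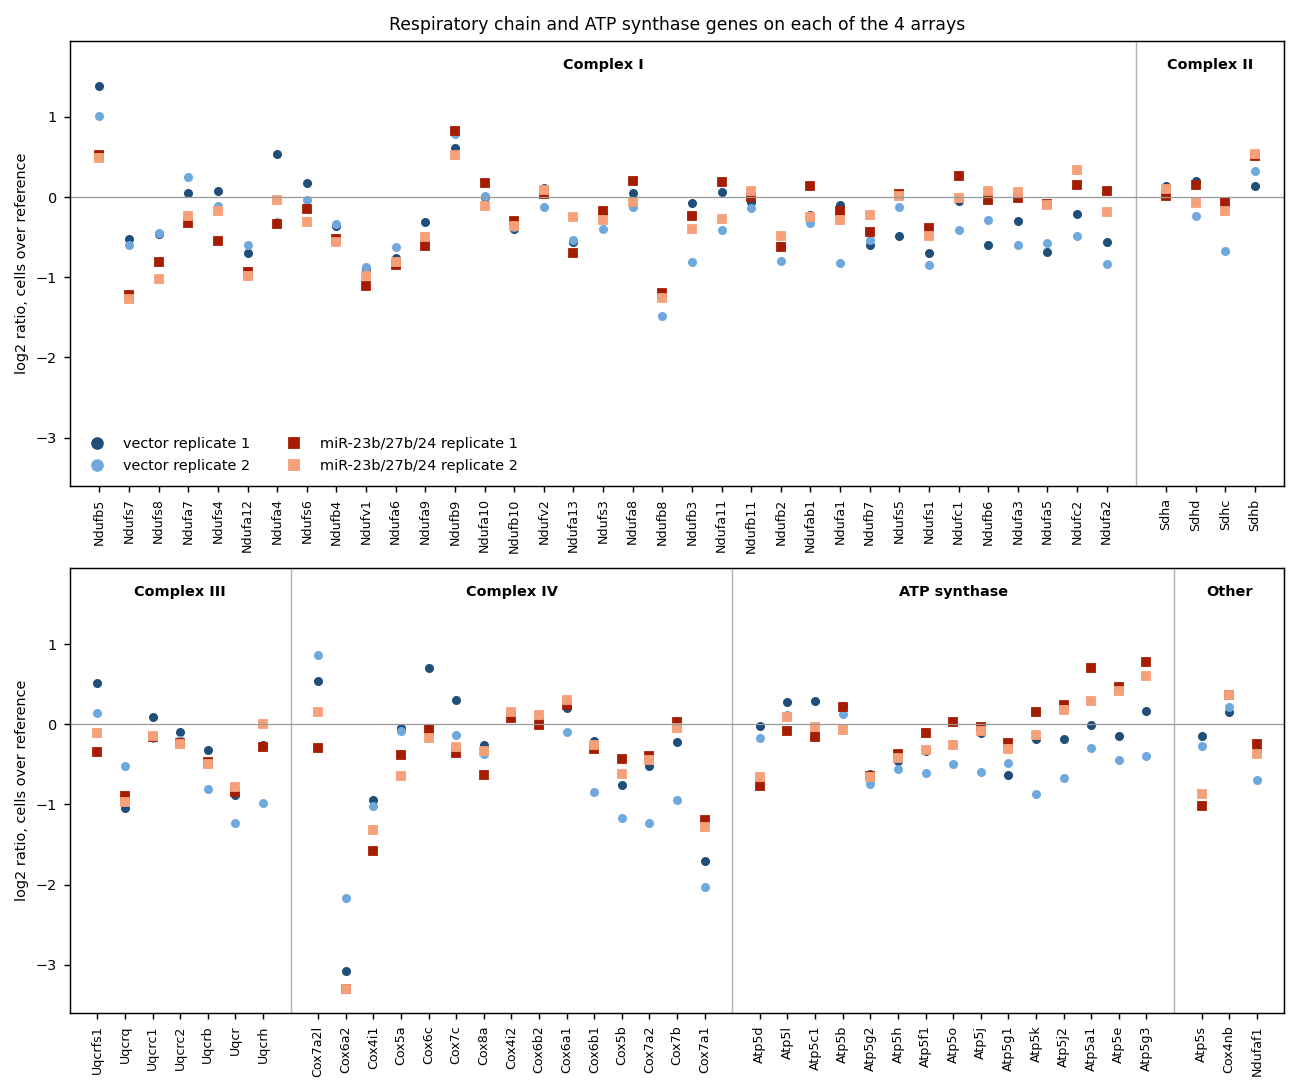
Log2 ratio of cells over reference on each array for 79 of the 80 genes, by complex and sorted by group difference (circles, vector replicates 1 and 2; squares, miR-23b/27b/24 replicates 1 and 2). Most genes lie near 0 on all arrays, with Cox6a2 the lowest at -3.08 and -2.16 on the vector arrays and -3.30 on both others; the light blue circles of vector replicate 2 are often the lowest of the 4.

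Complex I, the NADH dehydrogenase, had a median difference of 0.08, with 22 of 36 genes positive. Without vector replicate 1 the median was 0.16 with 24 positive, and without vector replicate 2 it was -0.00 with 18 positive, the lowest over the 18 alternative settings. Of its 7 nuclear core subunits, which carry the flavin and the iron-sulfur clusters, Ndufs7 alone passed the test. Ndufs8, whose product holds the iron-sulfur clusters that pass electrons on towards Ndufs7, read -0.46 and -0.45 on the vector arrays and -0.81 and -1.02 on the miR-23b/27b/24 arrays. Its groups did not overlap, but the difference of -0.46 missed the threshold (limma adjusted p = 0.103). Ndufv1, the NADH-binding flavoprotein, differed by -0.16. Ndufv2 differed by 0.07 and Ndufs3 by 0.08. Ndufs1, the largest subunit, read -0.70 and -0.85 against -0.39 and -0.49, a difference of 0.34 (adjusted p = 0.176). Core subunits of the same enzyme thus had differences of either sign.

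The 29 accessory subunits of complex I, which surround the core and are needed for its assembly and stability, had a median difference of 0.12, with 19 positive. Ndufb5, in the membrane arm, had the most negative value. Its ratio was 1.39 and 1.01 on the vector arrays and 0.53 and 0.49 on the miR-23b/27b/24 arrays, giving a difference of -0.69 ± 0.17 (SE; limma adjusted p = 0.0721). Ndufa2 had the highest difference, with -0.56 and -0.83 against 0.08 and -0.18 and a difference of 0.64 ± 0.17 (adjusted p = 0.0815). In both genes the groups were separate, yet neither passed. Ndufc2 followed with -0.21 and -0.48 against 0.15 and 0.34 (difference 0.59), and its partner in name Ndufc1 had 0.36. Ndufa5 read -0.68 and -0.57 against -0.09 and -0.10. At the other end lay Ndufa7 at -0.43, Ndufs4 at -0.34 and Ndufa12 at -0.31. Ndufab1, the mitochondrial acyl carrier protein, differed by 0.22. Ndufa4, named for complex I and since assigned to complex IV, read 0.54 and -0.31 on the vector arrays and -0.34 and -0.03 on the others, so its groups overlapped.

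Complex II, succinate dehydrogenase, links the chain to the citric acid cycle and is wholly nuclear-encoded. Sdha, the flavoprotein that oxidises succinate, read 0.14 and 0.03 on the vector arrays and 0.02 and 0.11 on the miR-23b/27b/24 arrays. Its difference was -0.02 with a 95% interval from -0.347 to 0.300. A dimmer probe of Sdha read 0.43 and -0.12 against -0.23 and -0.14, a difference of -0.34 with separate groups. Sdhb, the iron-sulfur subunit, read 0.14 and 0.33 against 0.51 and 0.53. By brightest probes it was the only one of the 4 with separate groups (difference 0.29, limma adjusted p = 0.243). The membrane anchors showed wider vector values. Sdhc read -0.13 and -0.68 against -0.07 and -0.17 (difference 0.28), and Sdhd 0.20 and -0.24 against 0.15 and -0.08 (difference 0.06). No complex II gene passed, and all 4 intervals lay within 2-fold. The median of the 4, 0.17, was -0.03 without vector replicate 2.

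Complex III, which moves electrons from ubiquinol to cytochrome c, had a median difference of -0.09 over 7 genes, 3 positive and 4 negative. The median turned positive under 2 of the 18 alternatives, at 0.08 with the mean of all probes and 0.01 without vector replicate 1, each with 4 positive genes. Uqcrfs1, the Rieske iron-sulfur protein and the one catalytic subunit in the set, read 0.52 and 0.13 on the vector arrays and -0.34 and -0.11 on the miR-23b/27b/24 arrays. Its groups were separate, and the difference of -0.55 ± 0.19 (SE) missed the threshold (limma adjusted p = 0.141). The core proteins Uqcrc1 and Uqcrc2 differed by -0.12 and -0.09. Uqcrh, the hinge protein, had the highest difference at 0.48 (adjusted p = 0.343). It read -0.25 and -0.98 on the vector arrays and -0.29 and 0.01 on the others, so the 2 vector arrays were further apart than the group means. The same held for 6 of the 7 complex III genes, Uqcrfs1 being the exception. Uqcr (Uqcr11 in RefSeq), Uqcrb and Uqcrq, small subunits, differed by 0.24, 0.08 and -0.15.

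Complex IV, cytochrome c oxidase, reduces oxygen to water around a catalytic core that is encoded by mitochondrial DNA. Its 10 widely expressed nuclear subunits had 5 positive and 5 negative differences, with a median of 0.03, and none passed. Over all 15 complex IV genes the median was -0.01, and it ran from -0.17 to 0.04 over the 18 alternatives. Cox4i1, the subunit that binds ATP as an allosteric regulator, read -0.95 and -1.02 on the vector arrays and -1.58 and -1.32 on the miR-23b/27b/24 arrays, giving a difference of -0.46 (limma adjusted p = 0.122). Cox5a differed by -0.45, Cox6c by -0.43 and Cox7c by -0.41. In the other direction lay Cox7b at 0.58, Cox7a2 at 0.46 and Cox5b at 0.44. Cox7b read -0.23 and -0.95 against 0.02 and -0.04, so vector replicate 2 stood apart from the other 3 arrays. Cox8a and Cox6a1 differed by -0.17 and 0.22, and Cox6b1 by 0.24.

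Several complex IV subunits have isoforms tied to particular tissues, and 4 of these were measured beside their common partners. Cox6a2, the heart and muscle form, read -3.08 and -2.16 on the vector arrays and -3.30 on both miR-23b/27b/24 arrays, far below the reference on each. Its difference of -0.68 (limma adjusted p = 0.251) was smaller than the gap between the vector arrays, and its partner Cox6a1 had 0.22. Cox7a1, also a heart and muscle form, read -1.70 and -2.03 against -1.19 and -1.28, with separate groups and a difference of 0.63 beside 0.46 for Cox7a2. With every local background as measured, the difference of Cox7a1 was 0.17 (adjusted p = 0.789). Cox4i2, a lung form linked to low oxygen, differed by -0.01 and its partner Cox4i1 by -0.46. Cox6b2, a testis form, differed by 0.01. Both isoforms were dim, with mean log2 intensities of 6.58 for Cox4i2 and 8.05 for Cox6b2. Those of Cox8b and Cox8c, which did not pass the filter, were 6.29 and 6.10. A difference near 0 therefore says little here. Over the alternatives it ran from -0.28 to 0.08 for Cox4i2 and from -0.07 to 0.08 for Cox6b2. Cox7a2l, a factor that joins complexes III and IV into supercomplexes, had the most negative difference of all 80 genes. It read 0.54 and 0.86 on the vector arrays and -0.29 and 0.15 on the miR-23b/27b/24 arrays, giving a difference of -0.77 ± 0.21 (SE; adjusted p = 0.0910).

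ATP synthase genes leaned to positive differences, with 11 of 15 above 0 and a median of 0.26, yet none passed the test. Groups were separate and higher in 9 of the 15 genes and separate and lower in 2, beside 27.4% and 32.3% of all genes. Over the 18 alternative settings the median of the 15 ran from 0.11 to 0.38 and the number above 0 from 9 to 12. In the catalytic F1 head the subunits went different ways. Atp5a1 (alpha) read -0.01 and -0.30 on the vector arrays and 0.70 and 0.29 on the miR-23b/27b/24 arrays, giving a difference of 0.64 (limma adjusted p = 0.117). Atp5b (beta), its partner in the catalytic ring, read 0.22 and 0.13 against 0.22 and -0.07, a difference of -0.10. Its dimmer probes had the opposite sign, with differences of 0.20 and 0.11. The rotor subunits of F1 differed in sign. Atp5c1 (gamma) had -0.19, Atp5d (delta) -0.61 and Atp5e (epsilon) 0.73.

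Atp5d and Atp5e, which sit together at the foot of the central stalk, had differences of opposite sign. Atp5d read -0.03 and -0.18 on the vector arrays and -0.77 and -0.66 on the others. Atp5e read -0.14 and -0.44 on the vector arrays and 0.46 and 0.41 on the others. Neither group pair overlapped, and both genes missed the threshold by a small margin, as given above. Each kept its direction under all 18 alternatives, several of which could not change it. With separate groups, leaving out an array cannot reverse the sign.

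The membrane part of ATP synthase held the highest value of the set. Atp5g1, Atp5g2 and Atp5g3 encode the same mature c-ring protein behind different import sequences, and their differences were 0.29, 0.03 and 0.80. Atp5g3 read 0.16 and -0.39 on the vector arrays and 0.78 and 0.60 on the miR-23b/27b/24 arrays (difference 0.80 ± 0.22 SE, limma adjusted p = 0.0919). The groups were separate, and the vector arrays were 0.55 apart. All 4 peripheral stalk genes, which hold the head still against the rotor, were positive: Atp5f1 (subunit b, Atp5pb in RefSeq) at 0.25, Atp5h (d) at 0.11, Atp5j (F6) at 0.29 and Atp5o (the oligomycin sensitivity protein) at 0.26. Of the small subunits that help dimers form, Atp5j2 (f) had 0.63 and Atp5k (e) 0.53, while Atp5l (g) had -0.19.

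The vector arrays lay further apart on these genes than the miR-23b/27b/24 arrays did, with a median gap, regardless of sign, of 0.25 against 0.11. This was not particular to them, since the gaps over all genes were 0.19 against 0.13, and over the 3212 genes of mean log2 intensity 12 or more, as 66 of the 80 were, 0.25 against 0.16. Vector replicate 1 read higher than replicate 2 in 59 of the 80 genes (73.8%), where the share over all genes was 51.6%. The median of replicate 1 minus replicate 2 was 0.19, against 0.01 over all genes. Replicate 1 was the higher in 10 of 10 common complex IV subunits, 14 of 15 ATP synthase genes (all but Atp5g1) and 6 of 7 complex III genes, but in 21 of 36 complex I genes. The median ratio of the 80 genes was -0.18 and -0.41 on the vector arrays and -0.17 and -0.23 on the miR-23b/27b/24 arrays. Vector replicate 2 was thus the lowest of the 4. In 37 of the 80 genes the vector arrays differed from each other by more than the group means did, as in 45.2% of all genes. With vector replicate 1 left out the median difference was 0.16, and with replicate 2 left out it was 0.00 to 2 decimals. Whether this gap between vector arrays plays a part in the differences above was not tested.

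**Figure D3:**
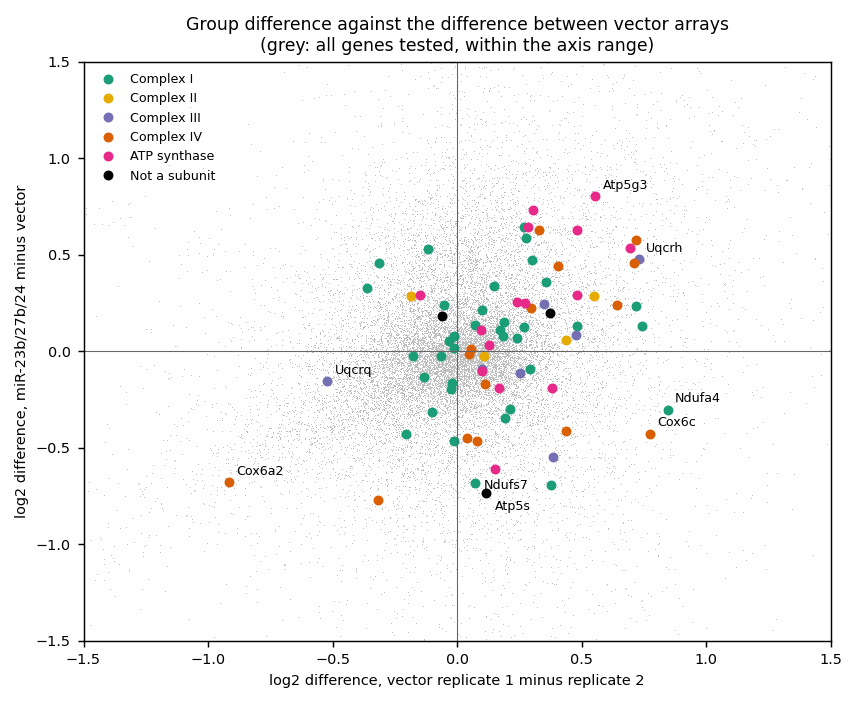
Group difference (y axis, log2) against the gap between the vector arrays, replicate 1 minus replicate 2 (x axis, log2), for the 80 genes by complex and for all genes tested (grey dots). The coloured points lie mostly to the right of 0 (59 of 80), while Ndufs7 and Atp5s sit low and close to the vertical line.

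Which genes passed the test changed when a vector array was left out. Without replicate 1 the higher calls were Atp5e, Atp5g3, Atp5j2, Atp5k, Cox5b, Cox6b1, Cox7a1, Cox7a2, Cox7b, Ndufa1, Ndufa2, Ndufa3, Ndufc2 and Uqcrh, and the lower calls were Atp5s, Cox6a2, Cox7a2l and Ndufs7. Without replicate 2 the calls were Atp5d, Atp5s, Cox6c, Cox7c, Ndufb5, Ndufs7 and Uqcrfs1, all lower. Ndufs7 and Atp5s were called in both fits. Under all settings run, the reported one included, 31 genes were always positive, 21 always negative and 28 changed sign.

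**Figure D4:**
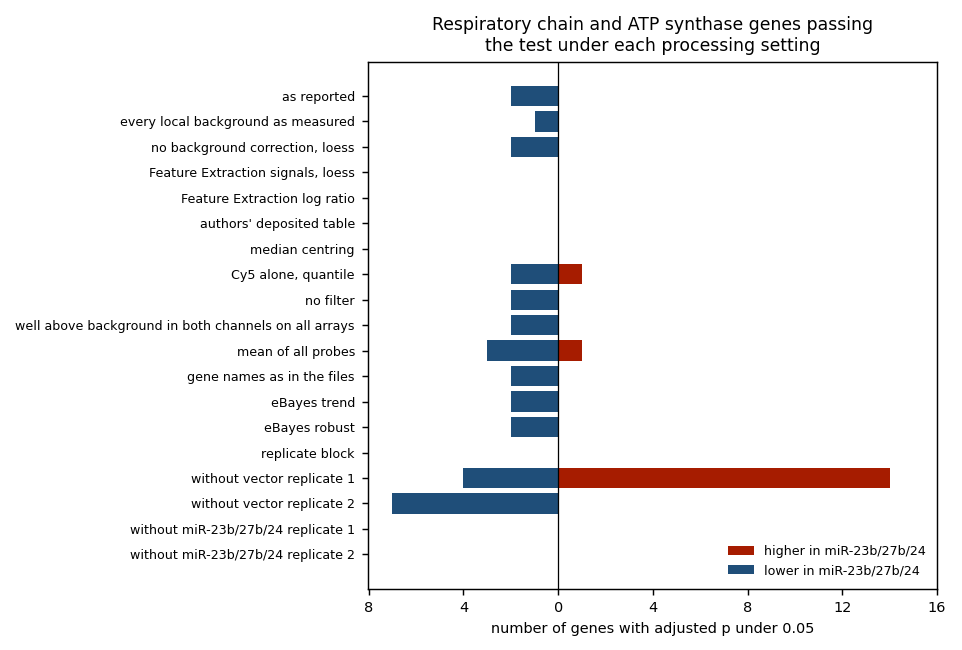
Number of the 80 genes (82 without the filter on dim probes) passing limma's adjusted p of 0.05 under each processing setting, higher to the right in red and lower to the left in blue. The reported fit has 2 lower and 0 higher; leaving out vector replicate 1 gives 14 higher and 4 lower, and leaving out vector replicate 2 gives 7 lower.

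Of the 80 genes, 22 were read by more than 1 probe that passed the filter, and each is given above by its brightest probe. The probes of 15 genes had differences of one sign and those of 7 had both signs. The median span between the probes of a gene was 0.16. For Ndufs6 the 3 probes lay between -0.34 and -0.30, and for Cox7a2 and Atp5a1 the probes nearly coincided. Cox5a had the widest disagreement in sign. Its bright probe read -0.05 and -0.09 against -0.39 and -0.65 (difference -0.45), and its dim probe 0.33 and 0.14 against 0.94 and 0.57 (difference 0.52). Ndufab1 had the widest span, 1.09, from 0.22 on the brightest probe to 1.30. Uqcrq (-0.15 and 0.55), Ndufa3 (0.47 and -0.02), Atp5b, Atp5f1, Uqcrc1 and Cox4nb also crossed 0. With all probes of each gene averaged, a total of 4 genes were called, the 2 falls with Atp5d (lower) and Atp5e (higher). Atp5d and Atp5e each have a single probe, so their differences stayed at -0.61 and 0.73 and only the adjusted p moved.

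**Figure D5:**
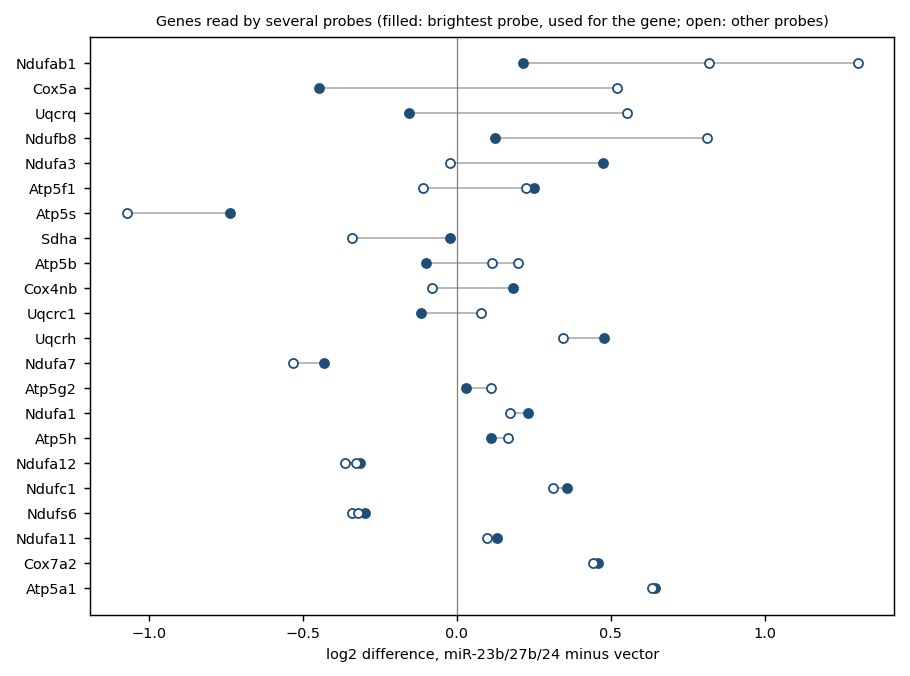
Log2 difference, miR-23b/27b/24 minus vector, for every passing probe of the 22 genes with more than 1 (filled, the brightest probe, which stands for the gene; open, others), sorted by the span between probes. Ndufab1 spans 1.09 and Cox5a lies on both sides of 0, whereas the probes of Atp5a1, at the bottom, nearly coincide.

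Genes that work with the chain were described from lists drawn up with earlier results of these data known. Of 37 measured assembly factors, 3 fell and none rose (limma, as above; at an unadjusted p under 0.05, 8 were lower and 3 higher), with a median difference of 0.05. Over all genes 4.64% fell and 4.77% rose, and 2694 of the 20500 were lower and 2985 higher at the unadjusted p. Surf1, a factor for complex IV, read 0.12 and 0.31 on the vector arrays and -0.97 and -0.69 on the miR-23b/27b/24 arrays, giving a difference of -1.05 (adjusted p = 0.0273) by its only probe. Sdhaf3 and Sdhaf2, factors for complex II, differed by -0.99 (adjusted p = 0.0268) and -0.64 (adjusted p = 0.0466). Their other probes did not bear this out in size, since that of Sdhaf3 had -0.03 and those of Sdhaf2 ran up to 0.08. These calls depended on the processing, since Sdhaf2 missed the threshold under 12 of 17 alternatives (adjusted p up to 0.414, and a difference of -0.16 with all probes averaged), Sdhaf3 under 4 of 17 and Surf1 under 3 of 18. Of 17 electron carrier and coenzyme Q genes none passed (3 higher and 1 lower at an unadjusted p under 0.05). They included Cycs, the somatic cytochrome c, at 0.43, and Cyc1, the haem protein of complex III, at 0.75 (adjusted p = 0.117).

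Of the citric acid cycle, which feeds the chain with NADH and succinate, 22 genes were measured, with a median difference of 0.07. Among them Cs, citrate synthase, fell. It read -0.01 and 0.02 on the vector arrays and -0.65 and -0.81 on the others, a difference of -0.73 (limma adjusted p = 0.0366), with -0.64 on its other probe. It missed the threshold under 8 of the 18 alternatives (adjusted p up to 0.214). Among 28 import genes Tomm40, the outer membrane channel, rose by 0.91 (adjusted p = 0.0487; 0.36 on its other probe). It was the one call of the 28, beside 9.41% of all genes, and it was lost under 12 of the 18 alternatives (adjusted p up to 0.285). Of 18 membrane carriers none passed (2 higher and 3 lower at an unadjusted p under 0.05). Among 22 regulators of mitochondrial DNA and nuclear respiratory genes, Polg2, the accessory subunit of the mitochondrial DNA polymerase, fell by 0.73 (adjusted p = 0.0364), a call lost under 8 of the 18 alternatives (adjusted p up to 0.263). Polg, the catalytic subunit, had 0.75 and missed the threshold (adjusted p = 0.0548). Tfam, which packages mitochondrial DNA, differed by 0.41 with vector values of -0.34 and 0.59, and Nrf1 by 0.27. Other probes of both had the opposite sign, down to -0.33 for Tfam and -0.25 for Nrf1. Gabpa and Yy1 had -0.25 and -0.59, and Ppargc1a had 0.01. Polg2 was the only call among the 22 regulators, beside 9.41% of all genes. The median of the regulators was -0.23. Groups were separate and lower in 11 of the 22 and separate and higher in 3, beside 32.3% and 27.4% of all genes. The mean ratio of the 22 was -0.11 and 0.10 on the vector arrays and -0.15 and -0.14 on the others. Vector replicate 2 thus had the highest mean. The 13 subunits encoded by mitochondrial DNA had no probe under the names searched and were not analysed here.

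The promoters of the subunit genes were searched for short motifs of factors known for respiratory genes. RefSeq windows of 300 bases (250 before and 50 after a start, GRCm38.p6) were found for 64 of the 77 genes, 69 windows in all. The letters searched on both strands were GCATGCG, the core of the NRF1 site, CCGGAAG, an ETS site as bound by GABP, and AAGATGG, as in YY1 sites. GCATGCG was in 15.94% of the 69 windows and in 5.29% of windows of all genes tested. CCGGAAG was in 23.19% and 14.12%, and AAGATGG in 15.94% and 6.57%. At least 1 of the 3 was in 44.93% against 23.46%, while the median GC content was 57.7% against 59.0%. These are descriptions of letters, not of bound sites.

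Promoters of 2 genes are printed to show how such matches lie, for Atp5j, with matches to all 3 motifs, and for Cox6a1, with matches to GCATGCG and CCGGAAG. Each is the 250 bases before a RefSeq start on the minus strand, at chr16:84834977-84835226 and chr5:115348959-115349208, with capitals marking the matches. A GCATGCG match on each strand overlaps in CGCATGCG.
Atp5j: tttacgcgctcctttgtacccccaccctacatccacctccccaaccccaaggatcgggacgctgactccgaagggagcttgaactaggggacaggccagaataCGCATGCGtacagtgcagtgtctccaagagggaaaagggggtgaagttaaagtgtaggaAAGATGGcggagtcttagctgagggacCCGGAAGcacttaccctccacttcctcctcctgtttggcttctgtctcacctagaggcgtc
Cox6a1: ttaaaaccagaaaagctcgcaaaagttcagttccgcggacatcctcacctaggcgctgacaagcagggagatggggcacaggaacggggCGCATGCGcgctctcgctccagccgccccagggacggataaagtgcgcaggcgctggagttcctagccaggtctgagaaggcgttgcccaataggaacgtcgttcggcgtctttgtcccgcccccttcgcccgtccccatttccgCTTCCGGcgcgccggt
The 2 genes had differences of 0.29 and 0.22, and neither passed the test. Vector replicate 1 read higher than replicate 2 for both, -0.11 and -0.59 for Atp5j and 0.20 and -0.10 for Cox6a1.

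Atp5d and Ndufs7 lie near each other on chromosome 10, which was noticed after their values were seen. Among the 5 measured genes between them, 4 had negative differences, from -0.81 for Fam174c and -0.75 for Cirbp to -0.06 for Midn and -0.03 for Pwwp3a, and Efna2 had 0.22. None of the 5 passed the test, and the smallest adjusted p was 0.0843 (limma), for Fam174c. The 80 genes as a whole lie on many chromosomes.

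Between 69.9% and 74.8% of gene probes were well above background in Cy5 on an array. Of 6 mammary epithelial markers, all well above background on every array, Krt7, Cldn7, Epcam and Cdh1 fell, Krt18 had -1.40 (limma adjusted p = 0.0650) and Krt8 had 0.30. Their mean ratio was 2.60 and 2.52 on the vector arrays and -0.24 and 0.09 on the miR-23b/27b/24 arrays. Of 4 mesenchymal markers, 3 were measured. Sparc rose by 1.29 (adjusted p = 0.0219), Fn1 had 0.74 (adjusted p = 0.158) and Vim 0.00, and their mean ratio was -0.87 and -1.25 against -0.32 and -0.45. Among leukocyte markers, Cd68 fell by 1.68 (adjusted p = 0.00679), Cd3e had overlapping groups, and Ptprc lay at -5.82 to -5.72 on all arrays. No measured endothelial, adipocyte or muscle marker passed the test (2 of 3, 2 of 3 and 2 of 4 measured). The adipocyte marker Fabp4 read 1.61 and -0.92 on the vector arrays, and Cdh5, Adipoq, Cdh2, Ckm and Myh6 did not pass the filter. The part of these marker differences in the values of the respiratory chain genes was not tested.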

How the data were processed

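Agilent 2-colour arrays of 4 samples were analysed. Spot and local background intensity, a corrected intensity and a log10 Cy5 to Cy3 ratio came from Agilent Feature Extraction 9.5.3.1, per the file headers. The authors also deposited a table of log2 ratios. Comparison with the scanner values showed it to be that log ratio, Cy5 over Cy3, centred on each probe's median (87.6% to 88.1% of values within 0.001), with column medians of 0.0133, -0.0172, 0.0221 and -0.0149. Its program is not given in the sources used. Per the file headers all arrays shared 1 slide and 1 scan.

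In R 4.3.3 with limma 3.58.1, local backgrounds marked as outliers (1782 to 1976 per array in Cy5) were replaced by the array's median, a choice made after results were seen. Normexp (offset 50) and loess, with control spots at weight 0, followed. A probe was kept if Cy5 was well above background on both arrays of a group, as for 30080 of 41174 gene probes. RefSeq names (GRCm38.p6) came by accession for 22951 probes, by symbol for 6659 and by synonym for 3109, while 8455 kept the file's name. The brightest probe stood for a gene. The groups were compared over 20500 genes by lmFit and eBayes, with 2 residual degrees of freedom and 2.83 from the prior, at a Benjamini-Hochberg adjusted p under 0.05. Exact permutation of 2 against 2 arrays cannot go below a two-sided p of 0.333 and was not used.

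The set, the lists and the naming rule (genes past the threshold, the highest and lowest of each complex, all Sdh genes, tissue isoforms with their partners, names that are not subunits, up to 4 called genes per further list) were chosen with earlier results of these data known. Other genes of the set were named after their values were seen. Some genes are not reported here. Arrays of the same replicate number were not treated as pairs, since no label ties the numbers to a shared batch. Deviations of same-numbered arrays correlated at 0.05 over all genes and 0.14 over the set. Such values, across genes that are not independent, cannot settle whether the arrays are paired. Alternatives covered background, scaling, filter, probe choice, naming, moderation, a replicate block and each array left out. Moderation and the block leave every difference as it is, as do filter, naming and probe choice for a gene with a single probe.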

Additional observations from a re-analysis of the deposited data

How the results depend on the processing

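Of 18 alternatives, those for filter, gene names, moderation and no background correction kept 2 calls among the respiratory chain and ATP synthase genes, and Cy5 alone gave 3. The count was 1 with every local background as measured (Cox6a2; 635 calls over all genes), 4 with the mean of all probes, and 0 with Feature Extraction signals, its log ratio, the authors' deposited table, median centring (1263 over all genes) and the replicate block. That block pairs arrays by replicate number, which no label ties to a shared batch. With it the limma adjusted p was 0.0634 for Ndufs7 and 0.0650 for Atp5s. Leaving out 1 array gave between 0 and 18 calls, between 214 and 4584 over all genes, and medians from -0.00 to 0.16; the main median was 0.08. No called gene of these or the further lists changed direction, which leaving out an array cannot cause where the groups do not overlap. The 2 arrays per group, 2 residual degrees of freedom and signal above background limit every value, and the causes of these changes were not tested.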
